A study of Homo sapiens with 18 samples.

Results

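SNUC1 is a cell line labelled as colorectal cancer (CRC), an established culture kept in the laboratory, and it was set against every other line of a panel of 18. It was chosen by its cell line label alone, so it is 1 array of 18, and the comparison group is the other 17 lines with 1 array each. Total RNA labelled with biotin was hybridised to an array that reads most human transcripts, and each value is a log2 intensity. SNUC1 was grown in RPMI-1640, as were COLO320HSR, HCT116, KM12, LS513, MDST8, NCIH716 and RCM1. CAR1, CL40, HT55, HUTU80, LS180, OUMS23, RKO, SW1463, SW48 and SW948 were grown in DMEM/F-12. The labels name no drug and no engineered change for any line. Both media held fetal bovine serum, penicillin and streptomycin, and glucose and pyruvate were added to RPMI-1640. A line is a single culture of one tumour's cells, so what sets SNUC1 apart describes that culture and not a class of tumours. With 1 array per line there is no replicate error. An exact permutation of 1 line among 18 cannot go below p = 0.0556, so genes are described by size and no test is given.

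The table held 54613 probe sets, from which 19774 genes were read by their brightest probe set. Of these, 13616 (called kept below) exceeded a background level of 4.46 log2 units in at least 1 line. That level is the 95th percentile of probe sets for genes of tissues other than the gut, and values at or below it are read as not detected. SNUC1 detected 10052 genes, inside the range of the other lines (9828 to 10378), and its array median of 3.67 lay between the lowest and the highest array (3.65 and 3.69). Where a gene had at least 2 probe sets above background, their differences from the panel median disagreed by a median of 0.21 log2 units, and by less than 0.74 in 90% of 6842 genes. A difference of 1 log2 unit is a factor of 2 and lies above that disagreement. The disagreement is between probe sets of the same arrays, so it holds no error between cultures or between arrays. A single gene named as highest or lowest by less than 0.21 log2 units is not told apart from the next line.

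The lining of the gut is renewed from stem cells at the crypt base, whose state depends on WNT signalling. Their descendants become absorptive cells, which carry a brush border of microvilli and take up fat, salt and water, or secretory cells such as goblet cells, which make mucus. Colorectal cancer cells keep these programmes to very different degrees, and the absorptive one is marked by the fatty acid carrier FABP1 and the keratin KRT20. Genes that sit side by side on a chromosome can be low or high together for many reasons, and an array of RNA does not tell the number of gene copies.

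The label of an intestinal epithelial line was checked against markers of several cell types. CDH17, the intestinal cadherin, was 11.62 in SNUC1, with 3.27, 9.26 and 11.42 as the lowest, median and highest of the other lines. EPCAM, the epithelial adhesion molecule, was 12.35 (3.74, 11.85 and 12.50; values in brackets are in this order throughout). Of 25 mesenchymal genes kept, 2 were above background in SNUC1, FN1 at 8.39 and COL1A1 at 4.79, while VIM was 3.34 and ZEB1 2.97. Of 10 leukocyte genes on the array, 3 were kept. LYZ, a lysozyme that Paneth cells also make, was 8.86 in SNUC1, while PTPRC was 3.15 and CD68 was 3.46. Of 8 measured endothelial genes, CDH5 was the 1 kept, and it was 3.73 in SNUC1. The named markers of mesenchymal, blood and vessel cells were thus near background, apart from FN1 and LYZ. FPR3, a white blood cell receptor described further on, was also detected (7.97).

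FABP1, which carries long-chain fatty acids in the cytosol of absorptive cells, was 13.02 in SNUC1. The other lines ran from 2.93 in COLO320HSR through a median of 3.37 to 11.89 in SW948, and 7 of them were above background. SNUC1 was therefore 1.13 log2 units above the nearest line, a gap of 2.18-fold, and lay in a bright group with SW948, LS513 (11.72), HT55 and CL40 (11.16). A second probe set gave the same pattern without the lead, at 8.31 in SNUC1 and up to 8.44 elsewhere. KRT20, the keratin of differentiated gut epithelium, was 12.34 in SNUC1, against 3.12, 4.63 and 12.24 as the lowest, median and highest of the other lines. SNUC1 and CL40 could not be told apart for KRT20 (a gap of 0.10), and HT55, LS513 (11.82) and SW948 (11.43) were close. The KRT20 value rests on 1 probe set. AP3S1, a small subunit of the AP-3 adaptor that sorts cargo to lysosomes, was 3.74 in SNUC1 and 9.51, 10.74 and 12.24 in the others. It is the gene with the widest gap below the panel, 5.76 log2 units under OUMS23, and it is described with its neighbours further on.

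The 250 bases before the RefSeq starts of FABP1 and KRT20 are shown because these genes mark the absorptive state of SNUC1. Capitals mark TTTATG on either strand, the letters at the heart of the site that CDX factors of the gut bind. The motif was chosen after the sequences were seen. The windows lie on the minus strand of assembly GRCh38.p14, at chr2:88128063-88128312 for FABP1 and chr17:40885243-40885492 for KRT20.
FABP1: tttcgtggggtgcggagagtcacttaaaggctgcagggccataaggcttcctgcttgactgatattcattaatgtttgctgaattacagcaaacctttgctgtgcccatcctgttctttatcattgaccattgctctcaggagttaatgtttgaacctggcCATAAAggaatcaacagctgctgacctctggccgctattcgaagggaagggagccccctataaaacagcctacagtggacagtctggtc
KRT20: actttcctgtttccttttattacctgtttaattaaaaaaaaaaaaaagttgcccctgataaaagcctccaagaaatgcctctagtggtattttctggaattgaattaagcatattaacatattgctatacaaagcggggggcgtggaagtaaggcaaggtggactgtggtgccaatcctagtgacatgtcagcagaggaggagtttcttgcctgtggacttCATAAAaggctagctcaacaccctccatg
Each window held 1 match, and 3386 of 35116 RefSeq windows of that length, or 9.64%, held at least 1. CDX1 was 8.95 in SNUC1 (others 3.88, 4.83 and 9.25) and CDX2 was 8.87 (4.28, 7.02 and 11.44). Both factors were in the upper part of the panel, and neither was highest. A match is a description of the letters and says nothing of binding.

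Absorptive and brush border genes stood high as a group. Of 43 listed, 41 were measured and 30 kept. Of these 30, 14 lay at least 1 log2 unit above the median of the other lines and 2 lay as far below, where 8.89% and 6.40% of all 13616 kept genes did so. The same 2 shares stand beside every list count below. The list median was 0.83 in SNUC1 and -0.01 over all kept genes, rank 5 of 18 lines counted from the highest (SW1463 led with 2.98). LGALS4, a lectin of the apical membrane, was 12.48 (others 3.20, 5.30 and 12.52). SLC26A3, the chloride and bicarbonate exchanger of the colon surface, was 10.25 (2.73, 3.07 and 12.73), and HT55 alone was brighter. Microvillus genes were among the 14. The motor MYO1A was 8.66 and highest of 18 (2.89, 3.83 and 8.44), and the actin bundler VIL1 was 11.28 (3.07, 6.42 and 11.72). The adhesion protein CDHR5 was 6.13 (3.35, 3.89 and 5.14). The 2 far below were DPP4, a brush border peptidase, at 4.02, under background, where the panel median was 7.46, and SLC26A2 at 5.71 (4.43, 7.64 and 10.32). The programme was not complete, since 18 of the 30 were above background in SNUC1. SI (3.32), AQP8 (3.37), SLC5A1 (3.54) and GUCA2B (3.80) were among those undetected, and their panel medians were under background as well.

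Gut transcription factors had the highest list median of the panel in SNUC1. Of 18 kept, 11 lay at least 1 log2 unit above the median and none as far below, with a list median of 1.49. The next line had 1.45. PRDM1, a transcriptional repressor, was 8.68 and highest (others 3.42, 5.39 and 8.08), and KLF5, a factor of dividing crypt cells, was 10.99 and highest (3.90, 9.60 and 10.80). PPARG, a lipid-sensing nuclear receptor, was 9.83 (2.79, 7.61 and 9.99). ELF3 was 10.34 (2.64, 8.39 and 10.91), and FOXA3 was 7.61 (3.60, 5.26 and 7.85).

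Carcinoembryonic antigen family genes, adhesion molecules of the epithelial surface, were bright. CEACAM5, the serum tumour marker, was 12.26 in SNUC1 (others 3.24, 4.09 and 12.04). CEACAM6 was 11.72 (3.49, 7.11 and 12.05) and CEACAM1 was 9.94 (3.03, 5.87 and 9.81). SNUC1 was highest of 18 for CEACAM5 and CEACAM1 by 0.22 and 0.14, gaps of the size by which probe sets of a gene commonly disagree. Members of this family are alike in sequence, and a second CEACAM5 probe set was at background in all 18 lines, so single members are read with care. Of 29 junction genes kept, 7 lay at least 1 log2 unit above the median, none as far below and 22 in between. The list median was 0.53, and 1.02 against the other RPMI-1640 lines alone. The pore-forming claudin CLDN2 was 8.02 (3.04, 3.62 and 10.34), the tight junction protein CGN was 8.09 (3.15, 5.58 and 8.22), and E-cadherin, CDH1, was 11.48 (3.16, 10.53 and 11.58). Of 22 goblet genes kept, 7 lay at least 1 log2 unit above the median, none as far below and 15 in between, and the list median was 0.08. TFF3 was 11.43 (3.35, 8.45 and 12.54) and the membrane mucin MUC13 was 10.49 and highest (2.96, 8.46 and 10.16), while MUC5B was 3.01 and SPDEF 4.31, both under background.

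**Figure D1:**
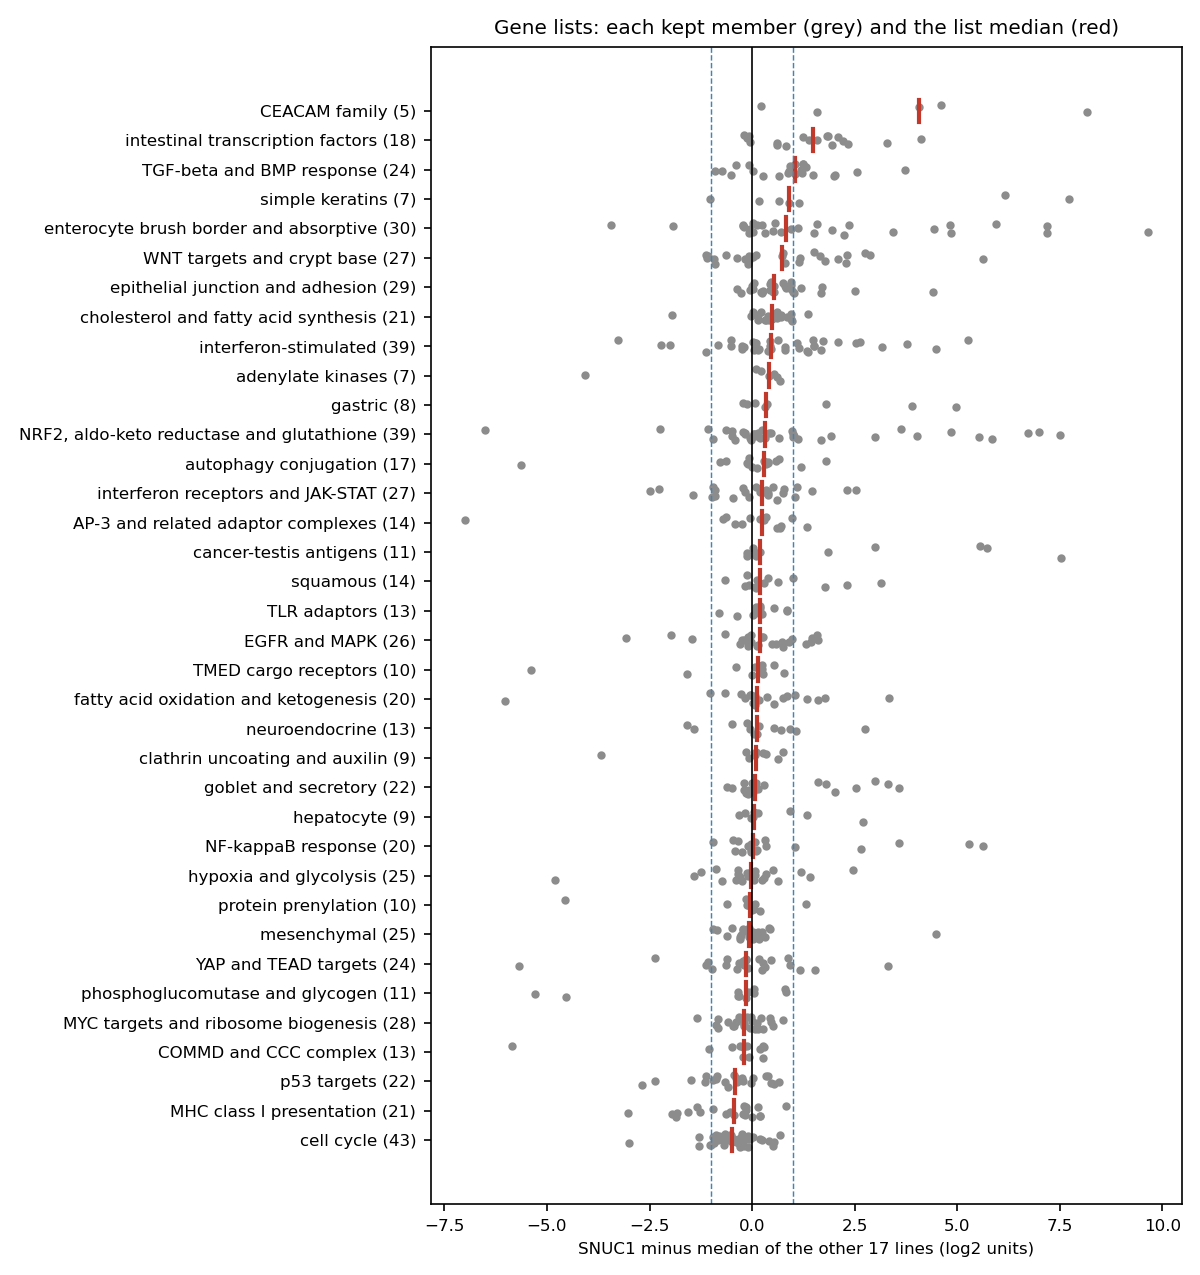
Difference of SNUC1 from the median of the other 17 lines (horizontal axis, log2 units) for each kept member (grey points) of 36 gene lists with at least 5 kept members, number of members in brackets. Red bars are list medians and dashed lines mark a difference of 1 log2 unit; CEACAM genes (4.07), gut transcription factors (1.49) and TGF-beta and BMP genes (1.05) stand highest and cell cycle genes (-0.48) lowest.

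Across the genome, 52 genes were above background in SNUC1 and at least 1 log2 unit above every other line, which is 0.382% of 13616. For 33 genes, or 0.242%, every other line was above background and SNUC1 lay at least 1 log2 unit below the lowest. Both counts lay inside the panel's range. Other lines had 12 to 298 high genes (median 62; SNUC1 was rank 10 of 18) and 7 to 125 low genes (median 23; rank 8). At the edge of the rule, PPP1R3D was inside with a gap of 1.00 and PLEKHA2 was outside with 0.99, and on the low side AGTRAP was inside with -1.01 and WDR36 outside with -0.99. A second probe set was brighter or dimmer than in every other line as well for 24 of 27 high genes and 16 of 21 low genes that had one.

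**Figure D2:**
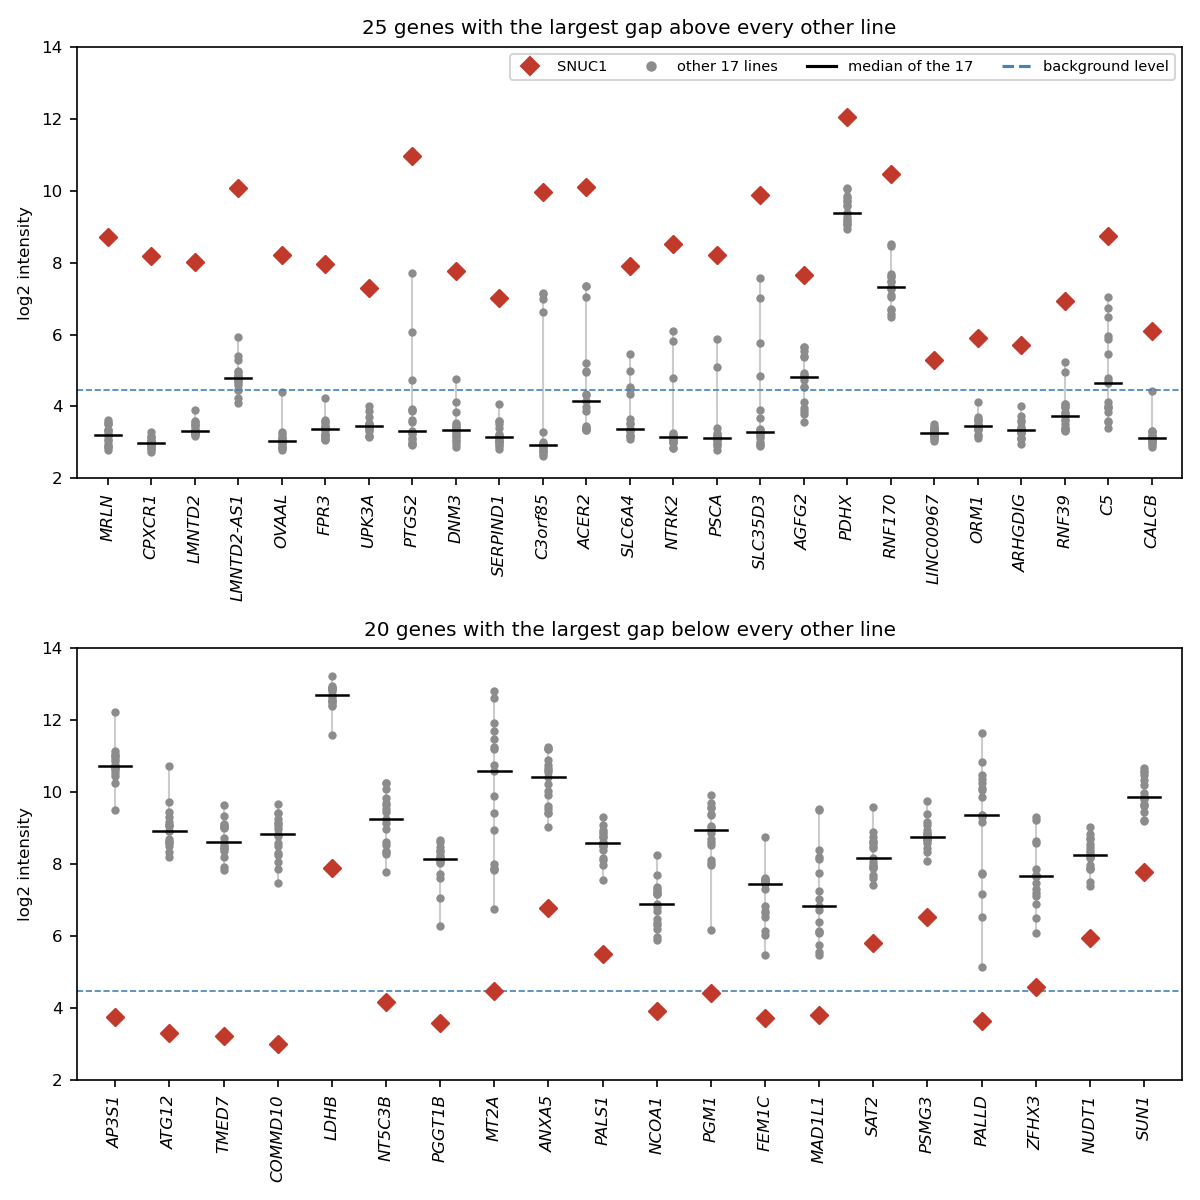
Log2 intensity (vertical axis) of the 25 genes with the largest gap above every other line (top) and the 20 with the largest gap below (bottom). Red diamonds are SNUC1, grey points the other 17 lines, black bars their median and the dashed line the background level of 4.46; MRLN leads the upper panel (8.70 against at most 3.62) and AP3S1 the lower (3.74 against at least 9.51).

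The widest gap upward belonged to MRLN, which encodes myoregulin, a micropeptide of the muscle calcium pump. It was 8.70 in SNUC1 and 2.78, 3.20 and 3.62 in the others, none of which detected it, so SNUC1 was at least 18.9-fold above the background level. CPXCR1, a zinc finger gene of the X chromosome, was 8.19 against at most 3.30, and its second probe set was 8.10 against at most 3.06. Detection in SNUC1 and in no other line applied to 17 of the 52 genes. LMNTD2 (8.02, others at most 3.89) and its antisense partner LMNTD2-AS1 (10.06, others at most 5.94) lie side by side on chromosome 11. The array's probe sets for such partners are not known here to tell the strands apart. Others with no detection elsewhere were OVAAL, a long non-coding RNA (8.22, at most 4.41), FPR3, a formyl peptide receptor of white blood cells (7.97, at most 4.23), UPK3A, a uroplakin of the bladder surface (7.30, at most 4.01), and SERPIND1, heparin cofactor (7.01, at most 4.08).

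PTGS2 stood apart with a known role in the colon. It encodes cyclooxygenase-2, the inducible enzyme of prostaglandin synthesis, which many colorectal tumours express. It was 10.97 in SNUC1 and 2.93, 3.31 and 7.70 in the other lines, 3 of which detected it, so SNUC1 was 9.65-fold above MDST8, the next line. A second probe set gave 10.14 against at most 5.48. Other genes of the 52, grouped here by role after their values were seen, act on lipids. ACER2, a ceramidase of the Golgi, was 10.12 (3.34, 4.16 and 7.35). DGAT2, which makes triglyceride, was 9.44 (4.48, 5.91 and 8.43), and ACOT8, a peroxisomal thioesterase, was 9.29 (6.34, 7.25 and 8.27). PLA2G4F, a cytosolic phospholipase, was 5.45 and not detected elsewhere (at most 4.31). Beside them, HSD11B2, which inactivates cortisol in the colon and kidney, was 8.99 (3.16, 5.11 and 7.38).

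Some of the 52 are best known from neurons and endocrine cells, again a grouping made after their values were seen. SLC6A4, the serotonin transporter, was 7.91 (others 3.10, 3.38 and 5.47). NTRK2, a neurotrophin receptor, was 8.52 (2.84, 3.15 and 6.09), although the mean of its 6 probe sets differed from the panel median by 1.34 against 5.38 for the brightest. DNM3, a dynamin of synapses, was 7.77 (2.88, 3.34 and 4.75). CADPS, which primes dense-core vesicles, was 10.40 (2.95, 3.27 and 9.02), and PCP4, a calmodulin regulator, was 9.54 (3.20, 3.64 and 8.21). CALCB, the calcitonin gene-related peptide of enteric neurons, was 6.08 (at most 4.42). The neuroendocrine list gives the wider count. Of 13 kept members, 2 lay at least 1 log2 unit above the median and 2 as far below. In SNUC1, 2 of the 13 were above background, the brighter at 11.13, while CHGA (3.0), SCG2 (3.26) and INSM1 (3.58) were under it.

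Some of the 52 were expressed throughout the panel and were higher again in SNUC1. PDHX, a component of the pyruvate dehydrogenase complex, was 12.04 (others 8.95, 9.38 and 10.09), which is 3.88-fold above the highest other line. RNF170, an endoplasmic reticulum ubiquitin ligase, was 10.46 (6.50, 7.33 and 8.51), and 2 of its probe sets had the gap. Secreted proteins of blood plasma were also among the 52, a grouping made after their values were seen. C5, the fifth component of complement, was 8.74 (3.40, 4.66 and 7.03), ORM1, an acute phase protein, was 5.89 (at most 4.13), and the fibrinogen chain FGB was 4.85 (at most 3.74), near background. Of 9 hepatocyte genes kept, 2 lay at least 1 log2 unit above the median and none as far below. Their list median was 0.04, and 2 were above background in SNUC1. PSCA, a surface antigen of stomach and prostate, was 8.22 (2.77, 3.12 and 5.88). C3orf85 was 9.97 (2.62, 2.93 and 7.15) and SLC35D3 was 9.87 (2.91, 3.29 and 7.56), each detected in 4 other lines. AGFG2 was 7.65 (3.56, 4.81 and 5.65), and RNF39 was 6.93 (3.32, 3.73 and 5.23). The non-coding RNA LINC00967 (5.29, at most 3.51) was detected in SNUC1 alone.

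A wider view counted genes at least 3 log2 units, or 8-fold, from the panel median. SNUC1 had 218 above (1.60%) and 104 below (0.764%), rank 10 of 18 on either side. After FABP1, the largest difference above was that of TDO2, which breaks down tryptophan, at 11.83 (others 3.02, 3.48 and 12.19). MAGEA6, a cancer-testis antigen, was 11.61 (3.20, 4.08 and 12.05). Against the other RPMI-1640 lines alone its difference was 0.42, and 8 of the other lines were above background. AKR1B10, an aldo-keto reductase, was 10.93 (3.06, 3.42 and 10.68). These genes were shared with some lines, unlike MRLN. The largest differences below were those of CNN3, a calponin that binds actin, at 2.61 (2.80, 9.76 and 11.10), and of AP3S1. ECI2, an isomerase of fatty acid breakdown, was 2.75 (3.03, 8.78 and 10.49), WWTR1, the co-activator TAZ, was 3.12 (3.14, 8.80 and 11.05), and IGFBP2 was 3.15 (2.88, 8.68 and 11.21). LS513 was also at background for CNN3, ECI2, WWTR1 and IGFBP2, and 15 of the other 17 lines detected CNN3. GPX1, the cytosolic glutathione peroxidase, was 4.55 (3.87, 11.06 and 12.35), with 3 other lines at background.

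The most compact group of low genes lay on chromosome 5. From PGGT1B to COMMD10, 9 genes were measured, and 7 of them had a panel median above background. SNUC1 was below background for all 7. For 6 of them every other line was detected and SNUC1 lay at least 1 log2 unit under the lowest. For the other, CCDC112, the lowest other line was under background too, so no gap is read. Of all kept genes, 0.242% met the rule that these 6 met. Over the 9979 ordered genes with a panel median above background, 8.42% lay at least 1 log2 unit below that median. The differences from the panel median ran from -7.00 to -2.89 with a median of -5.39, and the corresponding medians of the other lines ran from -0.79 in OUMS23 to 0.45 in HCT116. The line nearest to it, OUMS23, was thus within 1 log2 unit of the panel. The 2 remaining genes, CDO1 (3.23) and LVRN (3.02), had panel medians under background (3.22 and 3.08) and add nothing on this stretch. Of the nearest genes outside it, TSSK1B (2.85), LINC01957 (2.82), SEMA6A (3.76) and LINC02148 (3.08) were undetected, with panel medians under background. LINC00992 was 5.78 (2.94, 3.96 and 6.94). TMED7-TICAM2, TICAM2 and ARL14EPL, also annotated there by RefSeq, had no single-gene probe set and were not analysed here.

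The genes of that stretch belong to unrelated pathways. PGGT1B, the catalytic chain that adds geranylgeranyl lipids to proteins, was 3.58 in SNUC1 and 6.26, 8.15 and 8.66 in the others. CCDC112, a protein of centriolar satellites, was 2.40 (4.35, 5.29 and 6.09). FEM1C, a substrate adaptor of a ubiquitin ligase, was 3.73 (5.46, 7.44 and 8.74). In each case SNUC1 was under background and the panel median above it. TMED7, a cargo receptor between the endoplasmic reticulum and Golgi, was 3.23 (7.83, 8.62 and 9.63). ATG12, a ubiquitin-like protein needed to build autophagosomes, was 3.29 (8.21, 8.93 and 10.73). COMMD10, of the endosomal COMMD family, was 2.99 (7.46, 8.84 and 9.68). Second probe sets of TMED7 (2.93, others at least 7.44), ATG12 (3.26, at least 8.0), COMMD10 (3.87, at least 6.64) and PGGT1B (3.01, at least 4.53) were also under background in SNUC1. Set against the background level, the panel median of AP3S1 was at least 77.9-fold higher, that of ATG12 at least 22.2-fold and that of COMMD10 at least 20.8-fold. With the mean of all probe sets the median difference of the stretch was -3.71, and that of COMMD10 alone was -3.55.

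ATG12 and AP3S1 stand head to head, and the middle of the interval between their RefSeq starts is shown because neither gene was detected in SNUC1. The starts are 381 bases apart and the genes run in opposite directions. The 120 bases at chr5:115841696-115841815, plus strand, GRCh38.p14, begin 131 bases from the ATG12 start and end 131 bases before that of AP3S1. No motif was searched here, so the sequence has no capitals.
ATG12 and AP3S1: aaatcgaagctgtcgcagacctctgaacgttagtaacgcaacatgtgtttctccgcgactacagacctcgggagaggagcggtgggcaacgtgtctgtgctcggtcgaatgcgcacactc
In HCT116, where both genes were brightest, ATG12 was 10.73 and AP3S1 was 12.24. The deposited values do not cover this sequence itself.

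Low values went beyond the 7 genes on one side. On the side of TRIM36, 6 of the 10 nearest measured genes had a panel median above background, and all 6 lay at least 1 log2 unit below it (median -1.88). On the other side 1 of 4 did (median -0.27), TNFAIP8 at 6.64 against a panel median of 7.94, and DTWD2 was 5.23 (5.05, 5.51 and 6.06). Counted as an unbroken run, whose ends were set after the values were seen, WDR36 to COMMD10 held 17 neighbouring genes with a panel median above background, every one at least 1 log2 unit low in SNUC1. This was the longest low run of any line, and the next were of 10 genes, in COLO320HSR and NCIH716. With the mean of its probe sets TRIM36 differed by -0.66 in place of -1.93, so the unbroken run depends on the probe set chosen. Split at PGGT1B, where the stretch described first begins, the 2 parts had different medians. The 10 genes from WDR36 to TRIM36 had a median difference of -1.88 and 4 were under background in SNUC1. The 7 from PGGT1B on had -5.39 and all were under background. The differences overlapped, from -3.29 to -1.06 in the first part and from -7.00 to -2.89 in the second. Where SNUC1 is under background, their size depends on the panel level of the gene.

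APC, the tumour suppressor that marks beta-catenin for destruction, lies between WDR36 and TRIM36. It was 4.0 in SNUC1, under background, and 4.19, 7.29 and 8.17 in the others. SW1463 (4.19) and RCM1 were also under background for APC, so this value was not limited to SNUC1. SRP19, of the signal recognition particle, was 8.62 (8.43, 10.31 and 10.89), and DCP2, the decapping enzyme, was 6.66 (6.0, 8.68 and 10.17). Both remained clearly detected in SNUC1 at roughly the level of the lowest other line. Over the 6 nearest of these genes RCM1 had a median of -1.47. STARD4, a sterol carrier, was 7.16 (7.56, 9.10 and 10.31), and WDR36, a ribosome assembly factor, was 6.48 (7.47, 8.15 and 8.72). WNT targets, which APC restrains, were counted from a list. Of 27 kept, 11 lay at least 1 log2 unit above the median and 3 as far below, with a median of 0.74 and rank 4 of 18. Against the other RPMI-1640 lines alone the median was 0.19. AXIN2, a feedback gene, was 10.85 (3.92, 9.33 and 11.44), ASCL2 of crypt stem cells was 9.83 (3.27, 7.08 and 10.37), and CD44 was 12.40 and highest (3.08, 10.11 and 12.19). The 3 on the low side were the crypt base receptor LGR5 at 4.31, under background (2.63, 5.39 and 9.90), the growth factor receptor inhibitor LRIG1 at 4.95 (3.27, 6.06 and 9.35), and the ephrin receptor EPHB3 at 4.26, under background (3.75, 5.35 and 8.97). Any link of these values to APC was not tested.

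**Figure D3:**
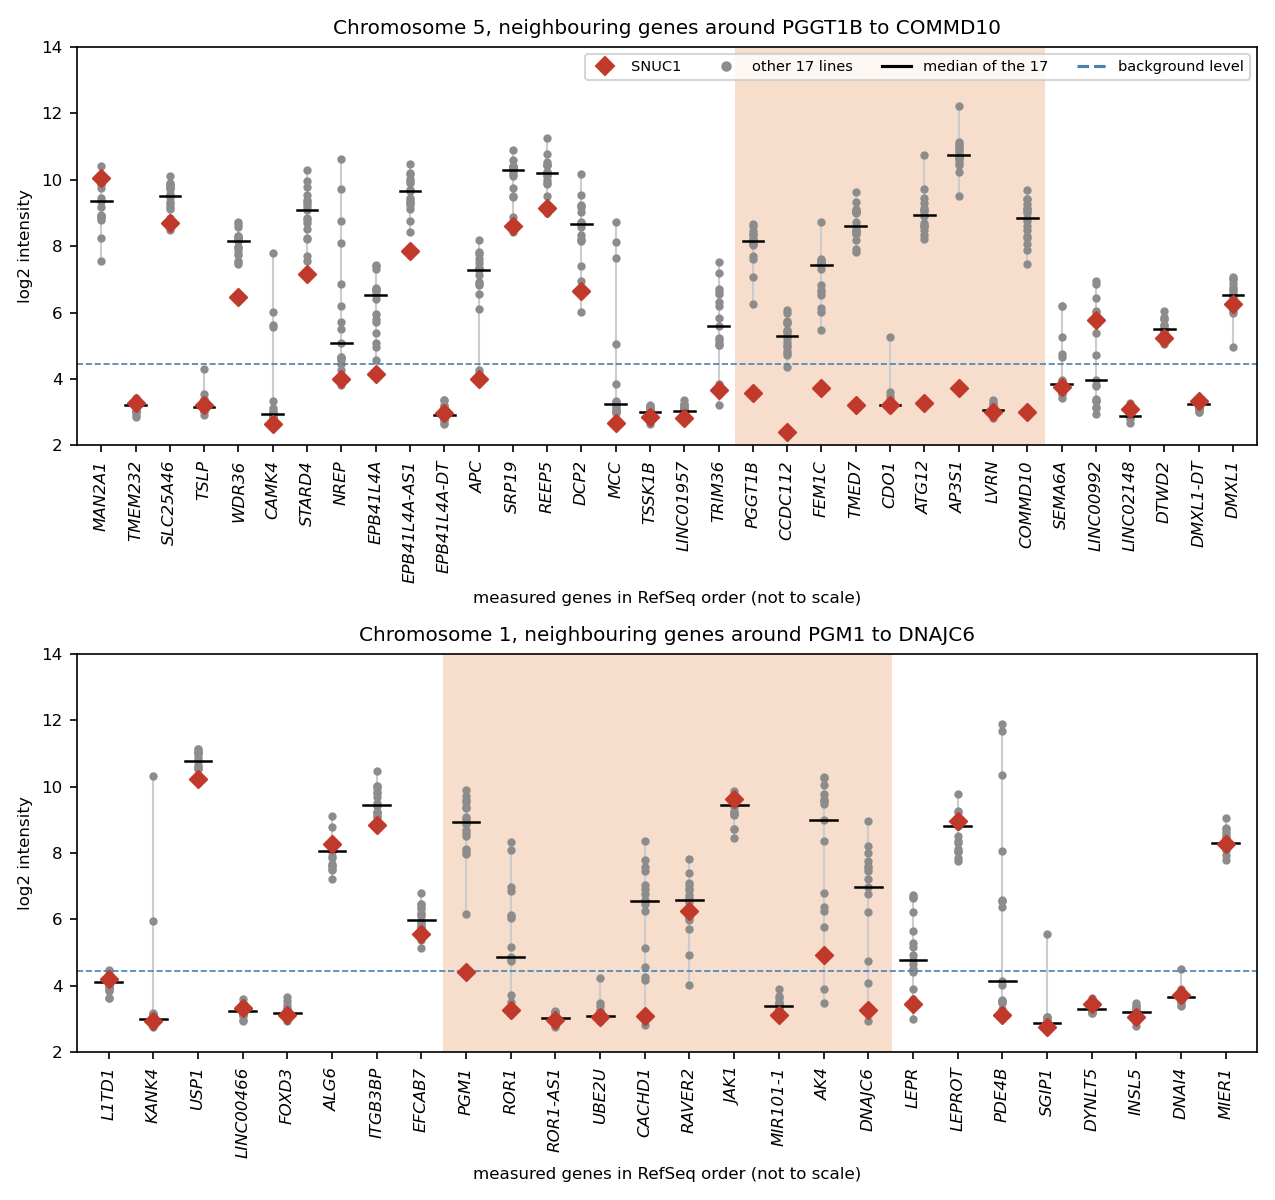
Log2 intensity (vertical axis) of measured genes in RefSeq order around PGGT1B to COMMD10 on chromosome 5 (top) and PGM1 to DNAJC6 on chromosome 1 (bottom), both shaded; spacing is not to scale. Red diamonds are SNUC1, grey points the other 17 lines, black bars their median; in the upper shaded block SNUC1 is at 2.40 to 3.74 throughout, while in the lower block JAK1 (9.63) and RAVER2 (6.26) stay within the panel.

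Partners of the undetected genes were counted next, and most lay within 1 log2 unit of the panel median. Of 14 kept members of AP-3 and related adaptors, AP3S1 was the 1 at least 1 log2 unit low and AP1S1 the 1 as high, at 11.03 (8.23, 9.70 and 10.65). The AP-3 subunits AP3M1 and AP3B1 were 8.11 (8.35, 8.74 and 9.26) and 8.53 (7.36, 8.24 and 8.90). The paralog AP3S2 was 8.60 (8.03, 8.65 and 9.47). Of 17 autophagy conjugation genes, ATG12 was the 1 as low, and MAP1LC3A (7.15; 3.69, 5.36 and 7.16) and ATG4A (7.72; 4.96, 6.52 and 7.85) were as high. ATG5, to which ATG12 is joined, was 9.12 (8.23, 8.73 and 9.39). Of 10 prenylation genes, PGGT1B was low and FNTA, the subunit it pairs with, was 11.67 and highest of 18 (lowest and median of the others 9.52 and 10.34). Of 13 COMMD and partner genes, COMMD10 and COMMD4 (8.95; 9.07, 10.01 and 10.48) were low, and of 10 TMED genes, TMED7 and TMED1 (5.80; 6.65, 7.40 and 8.06) were. The list medians were 0.24, 0.30, -0.06, -0.20 and 0.15 in this order, against -0.01 over all kept genes.

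The stretch from PGM1 to DNAJC6 on chromosome 1 was less complete. It held 10 measured genes, 7 with a panel median above background. Of these 7, 5 lay at least 1 log2 unit low and 1 was the lowest of 18. Over all genes with such a panel median 8.42% lay as low, and 4.78% of all kept genes were lowest in SNUC1. PGM1, a phosphoglucomutase that links glycogen and glucose breakdown, was 4.41 in SNUC1, under background, and 6.17, 8.94 and 9.91 in the others. AK4, an adenylate kinase of mitochondria, was 4.93 (3.47, 9.0 and 10.28), and DNAJC6, the neuronal auxilin that uncoats clathrin vesicles, was 3.27 (2.93, 6.96 and 8.97). CACHD1 was 3.09 (2.81, 6.56 and 8.37) and the receptor ROR1 was 3.26 (3.14, 4.86 and 8.32). CL40 was lower than SNUC1 for AK4 (3.47). DNAJC6, CACHD1 and ROR1 were undetected in SNUC1 and also in other lines, among them LS513 and SW948 for DNAJC6 (3.17 and 2.93). ROR1-AS1 (2.97), UBE2U (3.07) and MIR101-1 (3.11) were undetected in SNUC1, with panel medians under background.

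Inside the stretch JAK1 and RAVER2 lay well within the panel. JAK1, the kinase shared by interferon and cytokine receptors, was 9.63 (8.47, 9.43 and 9.86) and the RNA-binding protein RAVER2 was 6.26 (4.02, 6.59 and 7.81), ranks 7 and 11 of 18. They split the low genes into PGM1 to CACHD1 and, past JAK1, AK4 to LEPR, each a run of 3. The median difference of the 7 genes was -3.46, and the lowest median of another line was that of CL40 at -1.98. Of the 10 measured genes on either side, 6 and 4 had a panel median above background, and their median differences were -0.26 and 0.05. Before the stretch, ALG6 was 8.28 (7.21, 8.07 and 9.12), ITGB3BP was 8.84 (8.82, 9.44 and 10.48) and EFCAB7 was 5.57 (5.15, 5.98 and 6.80). These 3 lay within the panel's range. LEPR, the leptin receptor just past DNAJC6, was 3.45 (2.99, 4.79 and 6.74), and LEPROT next to it was 8.95 (7.76, 8.81 and 9.77). PDE4B was 3.11, with a panel median of 4.15, also under background. With the mean of all probe sets the median of the 7 was -1.61, and over all 10 measured genes it was -0.97, because 3 were not expressed in the panel. Enzymes that share these functions were counted. Of 11 glycogen and phosphoglucomutase genes, PGM1 and PYGL, liver glycogen phosphorylase, were low, PYGL at 3.11 (3.26, 8.40 and 9.97), and PGM2 was 9.04 (8.45, 9.20 and 9.88). Of 7 adenylate kinases, AK4 was low and AK3, its closest relative, was 10.98 (4.66, 10.36 and 11.29).

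Since JAK1 lies in that stretch, its pathway was listed in full. Of 31 interferon receptor and JAK-STAT genes, 29 were measured and 27 kept, of which 5 lay at least 1 log2 unit above the median and 3 as far below (median 0.25). Over all kept genes 8.89% and 6.40% did so. The 5 were IRF9 at 8.10 (4.13, 5.57 and 9.53), the receptors IL22RA1 at 6.69 (3.56, 4.36 and 6.53), IL13RA1 at 9.04 (6.25, 7.58 and 10.07), IFNGR1 at 10.32 (8.0, 9.22 and 10.29) and IL10RB at 8.64 (6.43, 7.59 and 8.66). The 3 were the inhibitors SOCS2 at 5.80 (4.07, 8.28 and 9.68) and SOCS3 at 2.49 (2.47, 3.93 and 6.85), and the interferon lambda receptor IFNLR1 at 4.20 (2.74, 6.48 and 7.24). SOCS3 and IFNLR1 were under background in SNUC1, and so was the panel median of SOCS3. SNUC1 was lowest for IL6ST (7.69; 8.19, 8.67 and 10.40) and TYK2 (5.90; 6.03, 6.81 and 7.34), by less than 1 log2 unit. Differences under 1 log2 unit were found for STAT3 (8.59), STAT5B (6.75), STAT6 (9.27), IFNAR1 (7.28), IFNAR2 (7.73) and IFNGR2 (7.98). The same held for IL4R (7.19), PIAS1 (8.57), PTPN2 (9.07) and CISH (5.46). JAK2 (4.15) and IL6R (4.45) also differed by less than 1 log2 unit, and both were under background. STAT5A (4.06), SOCS1 (3.49), OSMR (3.25) and LIFR (3.31) were under background.

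A further low stretch was found on chromosome 7, from DNAAF5 to SNX8, and it was chosen after the values were seen. Of 24 measured genes, 14 had a panel median above background. Of these, 11 lay at least 1 log2 unit low and 12 were the lowest of 18. Over all genes with such a panel median 8.42% lay as low, and 4.78% of all kept genes were lowest in SNUC1. The median difference was -2.15, the lowest median of another line was -0.72 (CL40), the 7 expressed genes after SNX8 had 0.41, and the 2 before DNAAF5 had -1.07, of which 1 was at least 1 log2 unit low. Of the 33 genes with a gap below the panel, 8 fell in this stretch and 6 in PGGT1B to COMMD10. MAD1L1, a spindle checkpoint protein, was 3.81 (5.47, 6.83 and 9.53). SUN1, of the nuclear envelope, was 7.77 (9.21, 9.86 and 10.67), and NUDT1, which clears oxidised nucleotides, was 5.94 (7.38, 8.25 and 9.04). PSMG3, a proteasome chaperone, was 6.51 (8.09, 8.76 and 9.77). In this stretch 2 of the 14 were under background in SNUC1, against 7 of 7 from PGGT1B to COMMD10.

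**Figure D4:**
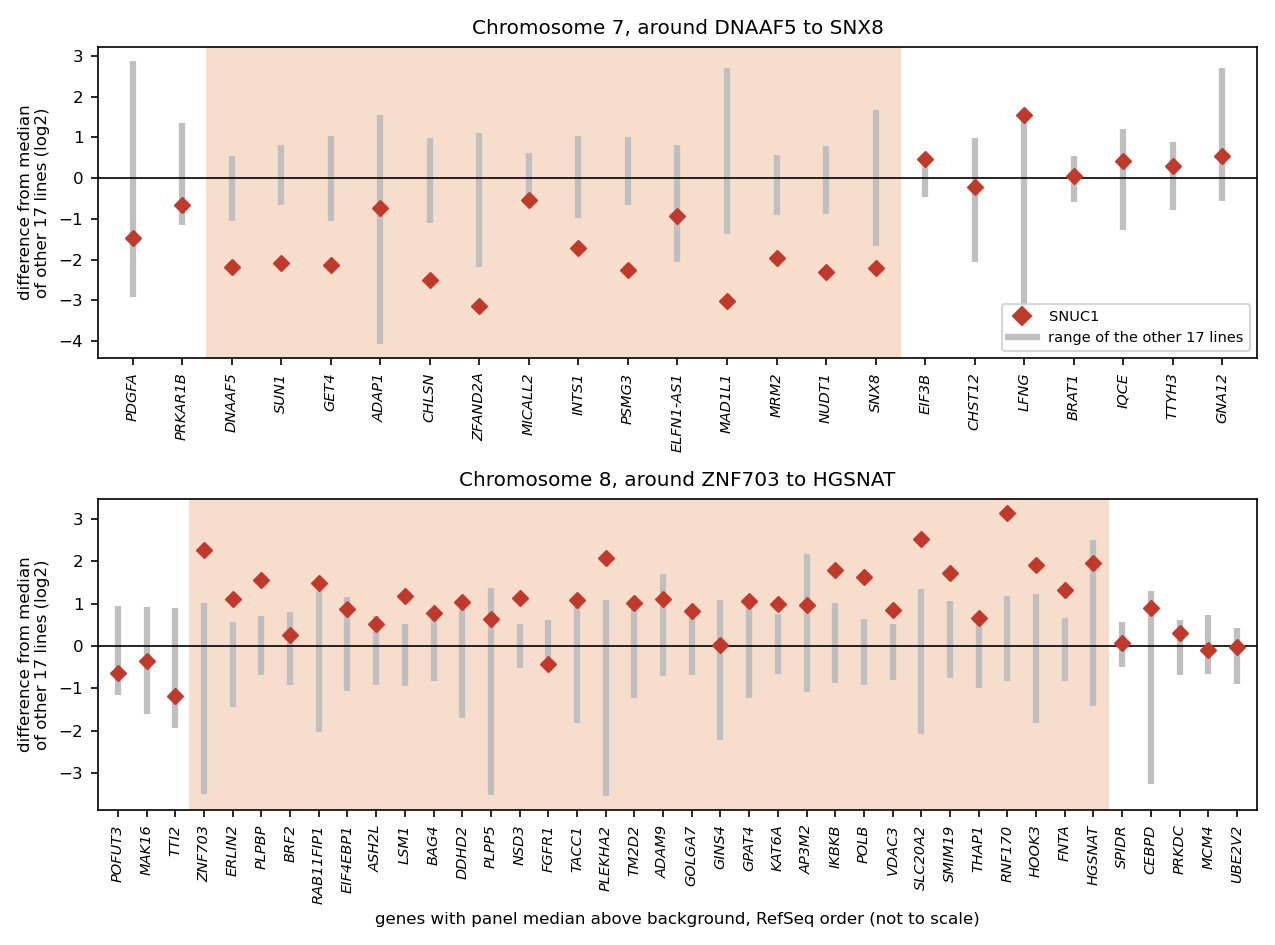
Difference from the median of the other 17 lines (vertical axis, log2 units) for genes with a panel median above background, in RefSeq order and not to scale, around the shaded stretches DNAAF5 to SNX8 on chromosome 7 (top) and ZNF703 to HGSNAT on chromosome 8 (bottom). Red diamonds are SNUC1 and grey bars the range of the other 17 lines; the shaded medians are -2.15 and 1.09.

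The opposite was seen on chromosome 8. From ZNF703 to HGSNAT, a stretch chosen after the values were seen, 58 genes were measured and 32 had a panel median above background. SNUC1 was highest of 18 for 20 of the 32, where 4.04% of all kept genes had their highest value in SNUC1. As many, 20, lay at least 1 log2 unit above the median, where 7.83% of genes did so in the whole table. The median difference was 1.09, and those of the other lines ran from -0.75 in HT55 to 0.31 in CAR1. RNF170 belongs here, as does FNTA. ZNF703, a repressor known from breast cancer, was 10.81 (5.05, 8.54 and 9.56). IKBKB, the kinase that releases NF-kappaB, was 8.82 (6.14, 7.02 and 8.03), and the repair polymerase POLB was 10.45 (7.90, 8.82 and 9.45). FGFR1, in the middle of the stretch, was 4.27 and under background, where the panel median was 4.69 and at least 1 other line was also undetected.

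Runs of at least 3 neighbouring genes were counted in every line to set these stretches in context. SNUC1 had 28 low runs and 21 high runs, rank 8 of 18 for both (other lines 5 to 81 and 6 to 39). Of its low runs, 22 were of 3 genes. Whole chromosomes differed by less. The median difference of the genes of chromosome 20 was 0.46 and that of chromosome 21 was 0.38, both the highest of 18 lines (others up to 0.39 and 0.28). Chromosome 13 had 0.42 (rank 4), chromosome 8 had 0.30 (rank 4) and chromosome 10 had -0.34 (rank 17).

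Metallothioneins, small proteins that bind zinc and copper, made up another low run, on chromosome 16. All 5 genes from MT2A to MT1X with a panel median above background were at least 1 log2 unit low, with a median of -4.16. Over all genes with such a panel median 8.42% lay as low. MT2A was 4.46 in SNUC1, about equal to the background level, and 6.76, 10.58 and 12.83 in the others. MT1X was 5.02 (5.79, 9.19 and 12.40), MT1G was 5.22 (5.71, 8.44 and 11.30), MT1E was 4.15 (4.65, 9.53 and 12.84), and MT1F was 6.11 (5.02, 8.87 and 11.97). KM12 was nearly as low (median -3.82), and RKO was the highest line (3.32). MT1HL1 on chromosome 1 read 3.59 (4.53, 8.75 and 11.29). These genes are nearly alike, so probe sets can pick up each other's transcripts and the family is better read as 1 signal. The size depended on the lines compared. Against the other 7 lines in RPMI-1640 the median was -1.44 and MT2A differed by -3.54.

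The 250 bases before the MT2A start, chr16:56608334-56608583 on the plus strand of GRCh38.p14, are shown because metallothionein genes are known for clusters of metal response elements. Capitals mark TGCACNC or TGCGCNC on either strand, the core that the zinc-sensing factor MTF1 binds.
MT2A: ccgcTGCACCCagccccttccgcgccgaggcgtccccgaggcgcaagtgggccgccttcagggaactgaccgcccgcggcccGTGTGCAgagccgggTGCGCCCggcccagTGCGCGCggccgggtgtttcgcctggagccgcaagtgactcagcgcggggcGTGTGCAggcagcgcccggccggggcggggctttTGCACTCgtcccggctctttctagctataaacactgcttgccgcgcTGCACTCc
The window held 7 matches, and at least 1 was present in 24.8% of 35116 RefSeq windows of that length. MT1X had 4 matches in its window, and MT4, not expressed in the panel, had 3. The motif was chosen after the sequences were seen, and matches are letters, not sites.

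Several further genes among the 33 lay elsewhere. LDHB, which turns lactate into pyruvate, was 7.89 (others 11.59, 12.70 and 13.22), a gap of 13.0-fold below the lowest line, and a second probe set gave 7.74 against at least 11.49. LDHB is on the hypoxia and glycolysis list, where of 25 kept 3 lay at least 1 log2 unit above and 3 as far below the median, and PGK1 was 12.62 (11.36, 12.12 and 12.65). NT5C3B, a nucleotidase at the end of a low run of 3 genes on chromosome 17, was 4.16 (7.78, 9.25 and 10.26), and ANXA5, a calcium-dependent membrane binder, was 6.77 (9.03, 10.41 and 11.25). PALS1, a scaffold of epithelial polarity, was 5.49 (7.56, 8.57 and 9.31), and PALLD, of actin bundles, was 3.62 (5.13, 9.37 and 11.64). NCOA1, a nuclear receptor co-activator, was 3.92 (5.89, 6.89 and 8.26), and SAT2 was 5.81 (7.43, 8.16 and 9.59). ZFHX3, a large transcription factor, was 4.59 (6.07, 7.67 and 9.31). By the rule that chose them, SNUC1 lies outside the range of the other lines for each.

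Detoxifying enzymes, many of them NRF2 targets, were split. Of 39 kept, 13 lay at least 1 log2 unit above and 3 as far below the median (list median 0.30). SNUC1 was highest of 18 for 7 of the 39, where 4.04% of all kept genes had their highest value in SNUC1. AKR1C1 was 11.72 (3.79, 6.20 and 11.43), AKR1C2 was 11.32 (3.40, 5.46 and 10.69), and AKR1C3 was 12.49 (3.01, 7.65 and 12.77). These 3 neighbours on chromosome 10 are alike in sequence, and NCIH716 was close (median difference 5.22, SNUC1 5.52). GPX2, the gut glutathione peroxidase, was 12.53 (2.89, 5.53 and 12.42), the reverse of GPX1. GSTM3 was 11.10 (3.64, 7.47 and 11.04), and GSTA4 was 5.31 (4.04, 7.54 and 10.10). NQO1, a quinone reductase, was 11.97 and highest (3.70, 11.32 and 11.95), and GCLM, of glutathione synthesis, was 9.25 (7.93, 9.21 and 11.03). The leads of GPX2, GSTM3 and NQO1 over the next line were smaller than probe sets of a gene commonly disagree.

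Genes of cell division had the lowest list median of the panel in SNUC1. Of 43 kept, 5 lay at least 1 log2 unit below the median, where 6.40% of all kept genes did so. None lay as far above, and the list median was -0.48. The next line was at -0.44, which is close. NUSAP1, of the spindle, was 9.02 (9.62, 10.32 and 10.78), thymidylate synthase, TYMS, was 9.74 (9.98, 11.02 and 11.78), and CDK1 was 10.20 (10.63, 11.14 and 11.49). SNUC1 was the lowest line for 7 of the 43, where 4.78% of all kept genes were lowest in SNUC1. CDKN2A, an inhibitor of the cycle on this list, was 5.59 (2.84, 8.59 and 10.49). Targets of p53 were also on the low side, with 5 of 22 at least 1 log2 unit below, none as far above, and a median of -0.42 (rank 17). FAS, a death receptor, was 4.40 (4.01, 7.09 and 8.74), and PLK2 was 6.52 (3.40, 8.89 and 11.39). MDM2 was 7.63 (7.47, 8.5 and 9.68).

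Antigen presentation and interferon genes differed in direction. Of 21 MHC class I genes, 7 lay at least 1 log2 unit below and none as far above the median (list median -0.44, rank 15, and -0.20 against the other RPMI-1640 lines alone). PSMB9, an immunoproteasome subunit, was 3.94 (3.53, 6.95 and 9.76), HLA-B was 8.44 (5.70, 10.27 and 12.41), and the peptide transporter TAP1 was 6.04 (5.29, 7.38 and 9.26). Interferon-stimulated genes outside this list were often high. Of 39 kept, 16 lay at least 1 log2 unit above and 4 as far below (median 0.46, rank 5). IFI27 was 9.68 (3.02, 4.42 and 11.83), OAS1 was 9.57 (4.23, 5.79 and 11.12), and EPSTI1 was 8.92 (2.92, 4.45 and 9.49). IFIT5 was undetected at 3.59, as was at least 1 other line (3.65, 6.86 and 8.37). FAS and IFIT5 mark the ends of a low run of 3 genes on chromosome 10.

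TGF-beta and BMP response genes had the highest list median of the 18 lines in SNUC1, with 13 of 24 at least 1 log2 unit above, none as far below, and a median of 1.05. The next line had 1.01. SMAD7, an inhibitor induced by the pathway, was 8.55 (3.32, 5.99 and 9.44), and the ligand BMP4 was 11.91 (3.95, 9.90 and 12.35). The receptor TGFBR2 was 10.72 and highest by a narrow margin (3.06, 9.49 and 10.66), and ID1 was 12.28 (7.01, 11.07 and 12.59). EGFR and MAPK genes were mixed, with 5 of 26 above and 3 below (median 0.19). The ligand EREG was 9.71 (2.46, 8.29 and 10.33), EGFR was 8.76 (4.01, 7.87 and 10.21), and ETV5, a MAPK target, was 5.08 (4.05, 8.16 and 9.33). YAP and TEAD targets were mixed as well, with 3 of 24 above and 4 below. Among them CCN2 was 8.86 (3.35, 5.54 and 12.07) and CCN1 was 5.45 (4.72, 7.82 and 11.94), while their co-activator WWTR1 was under background. Of 20 kept NF-kappaB genes, 5 lay at least 1 log2 unit above the median and none as far below, with a list median of 0.03 and rank 9. The 5 were chemokines, most of them on chromosome 4. CXCL1 was 10.56 (2.90, 5.27 and 10.66) and CXCL3 was 9.20 (3.05, 5.63 and 10.29). CXCL2 was 9.52 (3.5, 6.86 and 12.11), and CXCL8 was 9.15 and only rank 9 of 18 (3.28, 8.11 and 11.54). Over these 4 genes the median difference was 3.11 in SNUC1 and higher in CL40 (4.95). CCL20, on another chromosome, was 10.82 (2.92, 5.21 and 11.83). The remaining 15 of the 20 kept members lay within 1 log2 unit of the median.

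Over 4899 variable genes (a range of 3 log2 units or more), SNUC1 was most like SW948 (Pearson r = 0.81), CL40 (0.81), LS513 (0.81) and HT55 (0.80), whose order is not distinguishable, and least like MDST8 and HUTU80 (0.32 each). These correlations run across genes, which are not independent replicates, and all lines share the normalization. Of the 4 most alike, LS513 was grown in RPMI-1640 and the other 3 in DMEM/F-12. The marker FABP1 was above 11 in SW948, CL40 and LS513, whereas AP3S1 was between 10.86 and 11.07 there and 3.74 in SNUC1.

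**Figure D5:**
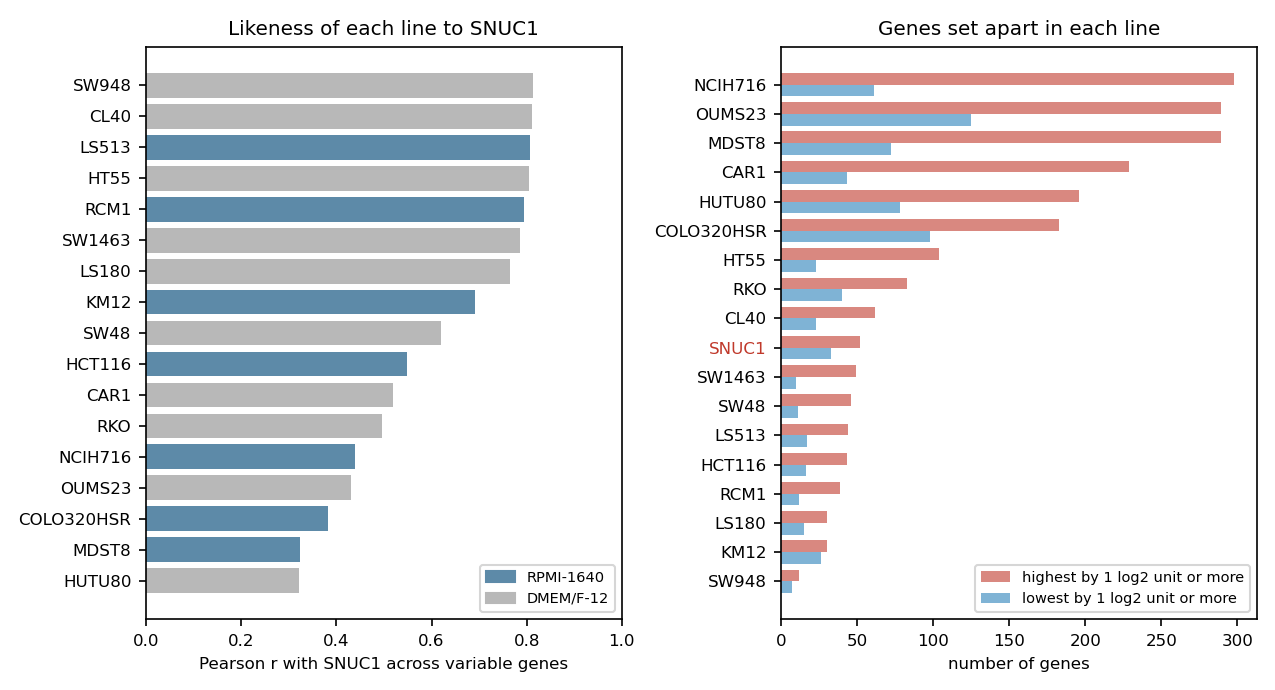
Left, Pearson correlation of each line with SNUC1 over 4899 variable genes (horizontal axis), coloured by culture medium. Right, number of genes at least 1 log2 unit above (red) or below (blue) every other line; SNUC1, with 52 and 33, is inside the range of the panel.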

How the data were processed

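Total RNA of 18 lines, 1 array each, was measured. The table holds log2 intensity, summarised per probe set before it was deposited. The submitters' processing notes name RMA and affy, without versions. RMA brings the arrays to one distribution, so a change in total RNA per cell cannot be seen.

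Of 54613 probe sets, 40914 had 1 gene, 864 several and 12835 none, and 40858 were matched to RefSeq (GRCh38.p14). The probe set with the highest mean stood for its gene. The background level is the 95th percentile of 72 probe sets of 45 genes restricted to other tissues (53 listed), and 13616 of 19774 genes exceeded it in at least 1 line. Below it no order is read, but the gap rule used such values as they stand. The number of arrays limits the precision.

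SNUC1 was compared with the lowest, median and highest of the other 17 lines. "At least N-fold" sets a value against the background level. Runs are 3 or more neighbouring genes (panel median above background), each at least 1 log2 unit from the median.

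The rule for naming genes took FABP1, KRT20 and AP3S1, the 25 genes with the largest gap above and the 20 below, the 10 farthest from the median on each side, every gene of the 2 low runs with 3 neighbours on each side, up to 5 members of each list by difference, and the whole JAK-STAT list. Not all of these are reported here. Other genes named were chosen after their values were seen. The members and lists were chosen with earlier results of these data known. Alternatives changed the probe set per gene, the scaling, the background level and filter, the gap, the reference and the comparison lines. Python 3.11.15, numpy 2.4.6, pandas 2.3.3, scipy 1.17.1 and matplotlib 3.10.9 were used.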

Additional observations from a re-analysis of the deposited data

How the results depend on the processing

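Alternatives were run for 83 single genes, 38 gene lists and the main stretches, and no called difference among these reversed its sign. Other genes named in the report, such as most list members, were not put through them singly. With a gap of 2 log2 units in place of 1, 17 genes were highest and 10 lowest in SNUC1, and with 3 log2 units 9 and 6 (52 and 33 in the report). Against the other 7 RPMI-1640 lines, a smaller set of lines to exceed, 171 were highest and 99 lowest. These include all 52 and all 33 by construction, since fewer lines can only add genes. Against the same 7 lines, 160 genes lay at least 3 log2 units below the median (104 in the report). Against those lines the WDR36 to COMMD10 median was -3.03 and the metallothionein median -1.44, and the cause was not tested. With the mean of all probe sets, which includes dim ones, 60 genes lay at least 3 log2 units below, 37 of the 52 and 21 of the 33 were called again, 15 low runs were found, and the medians were -1.61 for PGM1 to DNAJC6, -3.71 for PGGT1B to COMMD10, -1.82 for WDR36 to COMMD10 and -1.60 for DNAAF5 to SNX8. Over all measured genes, including those not expressed in the panel, the first pair of stretches had -0.97 and -4.57. At 0.7 log2 units there were 67 low and 75 high runs, and at 1.5 there were 8 and 4 (28 and 21 in the report). Leaving out each other line in turn gave 52 to 62 highest and 33 to 43 lowest genes. This too can only add genes, so it shows how many each line held back and not whether the calls are stable. The alternatives for the WDR36, DNAAF5, ZNF703 and metallothionein stretches were chosen after seeing the data. For the 83 genes, 21 values moved by more than the spread between lines and 228 did not, and for gene lists 1 moved and 113 did not. No paired analysis was possible because each line has 1 array, whose number only names it. Signal near background limits how far a gene can be read as low.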

Other observations

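Single members of some further lists were high in SNUC1, while most members lay within 1 log2 unit of the median of the other lines. Of 11 cancer-testis antigens kept, 5 lay at least 1 log2 unit above and none as far below (8.89% and 6.40% of all kept genes did), with a list median of 0.20 and rank 7 of 18. CTAG2, of the NY-ESO family, was 8.83 in SNUC1 (others 2.67, 3.10 and 10.13), and MAGEA12 was 8.91 (2.76, 3.36 and 10.86). MAGE genes are close copies, and their probe sets can pick up each other's transcripts. Of 8 gastric genes kept, 3 lay as far above and none below, with a list median of 0.34 and rank 4. The aspartic protease CTSE was 8.56 (3.22, 3.60 and 11.04), and the trefoil peptide TFF2 was 8.31 (3.42, 4.42 and 9.93).

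Genes of fatty acid oxidation had 5 of 20 above and 2 below, with a list median of 0.12 and rank 7. ACAA1, a peroxisomal thiolase, was 10.37 and highest (7.20, 8.76 and 9.64), and the carnitine carrier SLC25A20 was 8.64 and highest (4.41, 6.86 and 7.96), while ECI2 was under background at 2.75. The longest high run held 8 histone genes on chromosome 6, H2BC4 to H2BC10, with a median of 1.38. Histone genes are close copies too.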
